A study of Homo sapiens with 6 samples.

Results

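The BCL2 family of apoptosis regulators was examined through 10 of its genes in C4-2, a cell line of castration-resistant prostate cancer. The genes were taken by symbol from the gene-level read counts, from a list of family members. All 10 were found among the 55765 gene symbols, and all 10 passed the filter on low counts, as did 17894 genes in all. BCL2, BCL2L1 and MCL1 are pro-survival members, BAX and BAK1 are pore-forming members, and BCL2L11, BIK, BMF, PMAIP1 and BID are BH3-only members. The 6 libraries come from C4-2 cells, a subline of LNCaP, grown in DMEM with fetal bovine serum. In 3 of them the cells had received the solvent DMSO and in the other 3 the synthetic androgen R1881 at 1 nM, a supraphysiological androgen level (SAL), both for 72 h. No other agent or genetic change separates the groups, and a single cell line limits how far the values reach. Each group has libraries numbered 1 to 3. The study's methods call them triplicates, and its results describe RNA-seq that was repeated independently 3 times. The labels do not say what a number shares. With the number as a block, the p-values measure how the differences between SAL and DMSO spread over the numbers. That spread may be technical, and it leaves out the spread between the numbers themselves.

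Proteins of the BCL2 family decide whether the outer mitochondrial membrane stays closed. The pro-survival members hold the pore-forming members BAX and BAK in check, and BH3-only members, which share little but the short BH3 helix, either block the pro-survival members or activate the pore-forming ones. Once pores open, cytochrome c leaves the mitochondria and caspases are activated. In prostate cancer the pro-survival members are known for their part in the survival of cells after androgen withdrawal.

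The coding sequence of the BH3 core is shown for each member because it is the feature that defines the family. The search pattern was a leucine codon, 3 free codons, a glycine or alanine codon and an aspartate codon, and each of the 10 coding sequences held it once. Capitals mark these 6 codons, and 15 bases of coding sequence are given on each side, 5′ to 3′ on the coding strand (GRCh37, the assembly of hg19, with the canonical transcripts of the GENCODE annotation). Every stretch lies within a single coding exon.
BCL2: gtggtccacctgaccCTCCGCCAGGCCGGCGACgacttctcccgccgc
BCL2L1: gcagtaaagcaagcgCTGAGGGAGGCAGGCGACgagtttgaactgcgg
MCL1: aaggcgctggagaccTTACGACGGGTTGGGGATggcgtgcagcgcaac
BAX: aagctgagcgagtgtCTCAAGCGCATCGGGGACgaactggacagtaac
BAK1: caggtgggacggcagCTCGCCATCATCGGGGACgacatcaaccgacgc
BCL2L11: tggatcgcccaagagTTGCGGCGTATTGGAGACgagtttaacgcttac
BIK: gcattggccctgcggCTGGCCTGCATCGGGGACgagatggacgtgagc
BMF: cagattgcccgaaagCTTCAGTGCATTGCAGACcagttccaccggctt
PMAIP1: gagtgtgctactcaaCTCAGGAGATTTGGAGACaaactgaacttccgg
BID: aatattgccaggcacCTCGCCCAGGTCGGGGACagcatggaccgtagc

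Among the pro-survival members, the stretch of BCL2 is in exon 2 on the minus strand (chr18:60985579-60985626), that of BCL2L1 in exon 2 on the minus strand (chr20:30309722-30309769), and that of MCL1 in exon 1 on the minus strand (chr1:150551338-150551385). The pore-forming members carry it in exon 3 of BAX on the plus strand (chr19:49459029-49459076) and in exon 4 of BAK1 on the minus strand (chr6:33543161-33543208). For the BH3-only members it lies in exon 3 of BCL2L11 (chr2:111907665-111907712), exon 3 of BIK (chr22:43523707-43523754) and exon 2 of PMAIP1 (chr18:57569890-57569937), all on the plus strand, and in exon 4 of BMF (chr15:40396393-40396440) and exon 4 of BID (chr22:18222178-18222225) on the minus strand. PMAIP1 encodes the shortest protein of the set, with 54 codons, and MCL1 the longest, with 350.

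After removal of rRNA genes the libraries held between 6931042 and 9776990 counts. The treatment was visible in the known androgen-induced genes KLK3 and FKBP5, at log2 fold changes of 1.21 (adjusted p = 2.94e-07, edgeR's quasi-likelihood test) and 3.36 (adjusted p = 1.53e-11). All 6 luminal prostate markers fixed for the check were expressed. The 3 basal markers never exceeded 3 counts and the 5 immune markers never exceeded 4. Of 6 stromal markers 4 stayed under 10 counts in every library, as did 2 of the 3 endothelial markers found. PECAM1, also fixed as an endothelial marker, was not among the gene symbols. KRT5, COL1A2, DES, CDH5, PTPRC and CD3E were at 0 throughout. The stromal marker COL1A1, with 14 to 88 counts, and the endothelial marker VWF, with 4 to 35, passed the filter and were not called.

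The mRNA of the pro-survival gene BCL2L1 was higher in SAL, and those of the pro-survival gene BCL2 and the BH3-only gene PMAIP1 were lower, while the other 7 members did not pass the test. Of the 10 members, 1 was called higher and 2 were called lower at a Benjamini-Hochberg adjusted p under 0.05 in edgeR's quasi-likelihood test with the replicate number as a block. Over all genes tested, 11.0% were called higher and 8.94% lower, and 20.0% in either direction. With 3 calls among 10 genes, the share is not a result about the family. The median log2 fold change of the members was -0.32, against -0.0029 over all genes tested, with 8 of the 10 estimates below 0. The 10 genes are a chosen part of the family, so this median is not a result about the family either. Of its other pro-survival, pore-forming and BH3-only genes tested, BCL2L2, BOK and BAD had estimates above 0 (0.049, 0.18 and 0.26). BBC3 had one below 0 (-0.15). In 6 members all 3 same-numbered pairs moved in 1 direction, against 50.3% of all genes tested. The levels of the groups overlapped in all 10 members, while 7.75% of all genes tested had groups that did not overlap, 3.87% with all SAL libraries higher and 3.88% with all lower. DESeq2 called 1 member higher and 1 lower, against 7.43% and 5.17% of all genes tested. These are relative amounts in bulk RNA, so a change in some of the cells and a change per cell cannot be told apart.

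**Figure D1:**
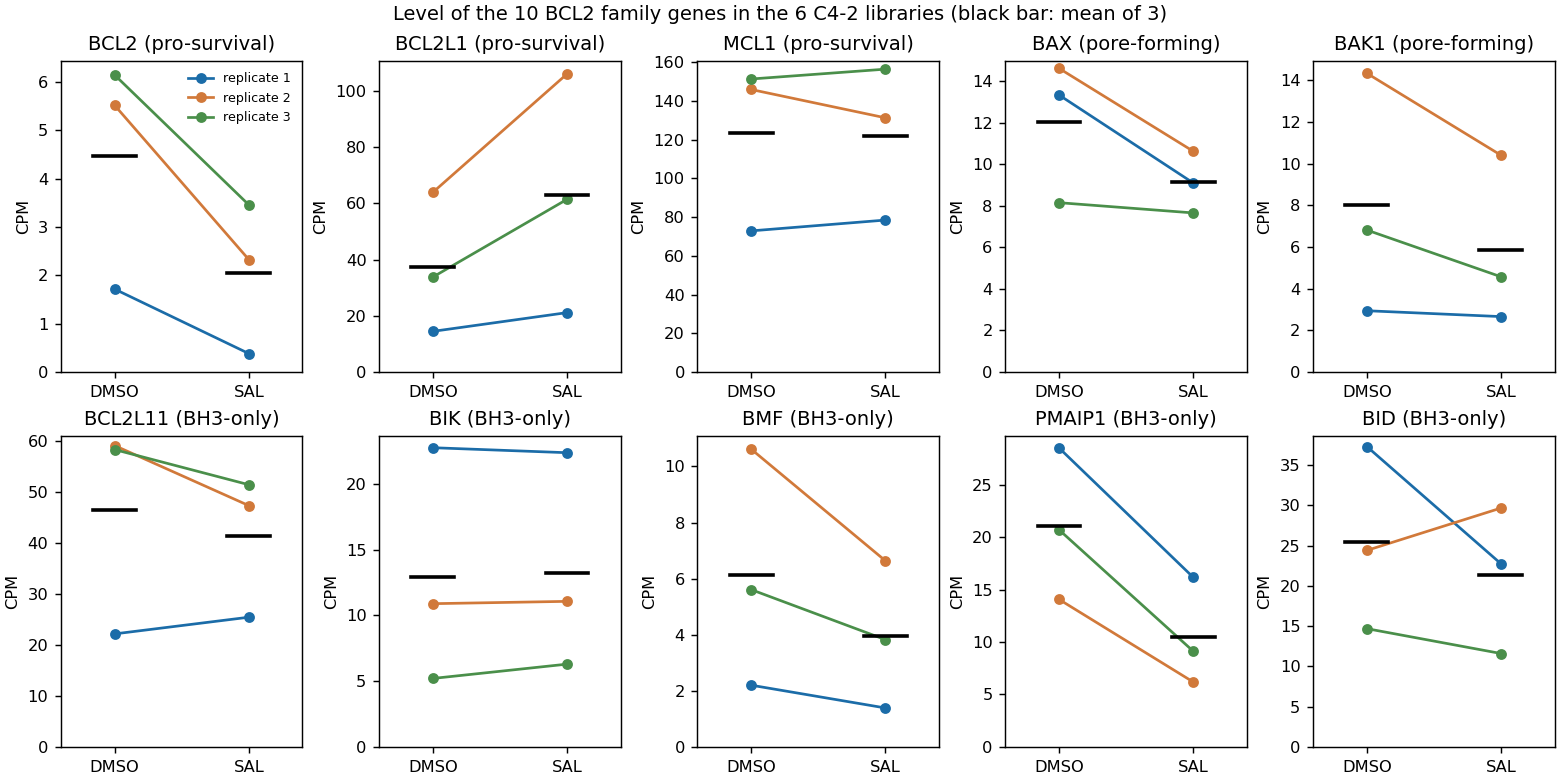
Level of each of the 10 genes in the 6 libraries, in CPM (counts scaled to a common library total, linear axis from 0). Points are libraries, lines join libraries of the same replicate number, and black bars are means of 3. The lines of BCL2 and PMAIP1 all fall and those of BCL2L1 all rise, from starting levels that differ between replicate numbers.

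BCL2, the founding pro-survival member, lies on chromosome 18 (60790579 to 60987361 in GRCh37) and had the lowest mean CPM of the members. In the order of the replicate numbers, which is kept throughout, the DMSO libraries had 1.71, 5.52 and 6.14 CPM and the SAL libraries 0.379, 2.32 and 3.46 CPM. CPM are counts scaled to a common library total after correction by TMM, the trimmed mean of M-values. Each SAL library was below the DMSO library of its number, but SAL replicates 2 and 3 were above DMSO replicate 1. The fitted change was -1.17 on the log2 scale (standard error 0.31, 95% interval -1.84 to -0.51, adjusted p = 0.0143, edgeR), which is 0.443 times the DMSO level. The call rests on few reads, with 14, 40 and 46 counts in DMSO and 3, 21 and 28 in SAL. It was lost with DESeq2 and the block (log2 fold change -1.27, adjusted p = 0.0765), without replicate 2 (-1.12, adjusted p = 0.0762) and without replicate 3 (-1.48, adjusted p = 0.0777).

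BCL2L1, which encodes BCL-XL, moved the other way. On chromosome 20 (30252255 to 30311792), it had 14.4, 64.0 and 33.8 CPM in DMSO and 21.1, 106 and 61.5 CPM in SAL. Every SAL library was above the DMSO library of its number, and replicate 1 was lowest and replicate 2 highest in both groups. The mean rose from 37.4 ± 25.0 to 62.9 ± 42.5 CPM (SD, n = 3), and the pairs differed by 0.54, 0.73 and 0.86 on the log2 scale. The fitted log2 fold change was 0.73 (standard error 0.11, 95% interval 0.50 to 0.96, adjusted p = 0.000189, edgeR). It stayed past the threshold with DESeq2 (adjusted p = 0.000160) and without any 1 of the replicate numbers (adjusted p at most 0.0300, without replicate 3). In the newer annotation used here, 41.3% of its exon bases are also covered by the noncoding gene ABALON on the other strand, and the counting did not use strand. Gene counts also do not separate the long and short splice forms of BCL2L1, whose products act in opposite directions.

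MCL1, on chromosome 1 (150533371 to 150552214), encodes a short-lived pro-survival protein. Of the 10 genes, MCL1 had the highest mean per exon length in both groups, above the next gene in 2 of the 3 libraries of each group. It had 72.9, 146 and 151 CPM in DMSO and 78.5, 131 and 157 CPM in SAL. The groups lay on top of each other, with replicate 1 lowest in both. The log2 fold change was -0.0018 (95% interval -0.21 to 0.20, adjusted p = 0.994, edgeR), and its sign turned without a filter and without replicate 2. The 3 pro-survival genes gave different readings, 1 lower, 1 higher and 1 not called.

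**Figure D2:**
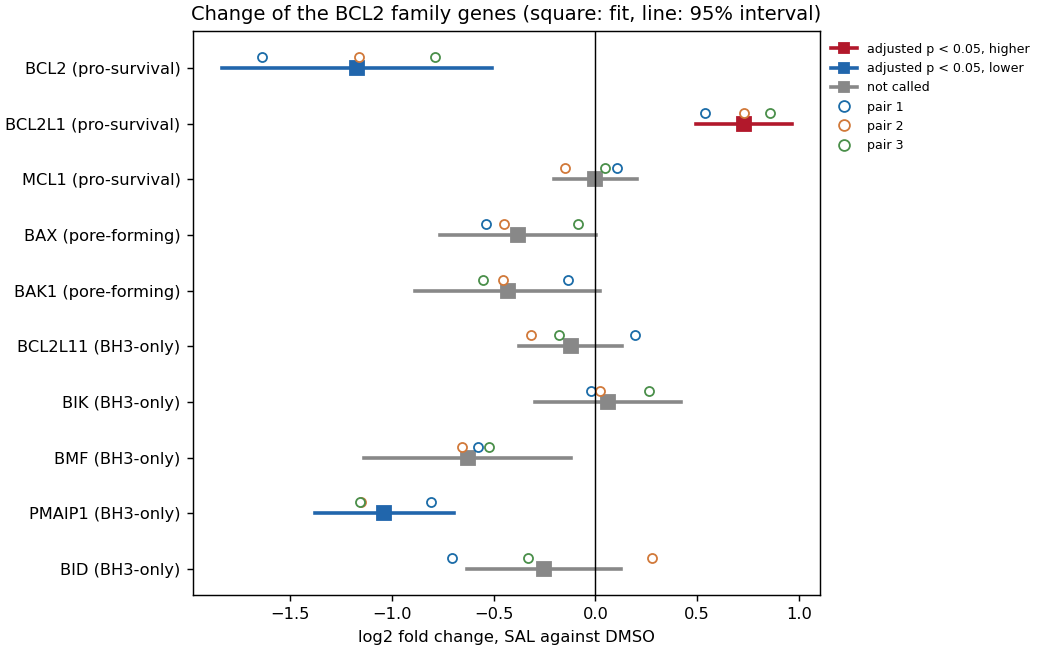
Fitted log2 fold change of SAL against DMSO (squares) with its 95% interval (lines) for the 10 genes, and the difference within each same-numbered pair (open circles). BCL2L1 is the only gene with an interval wholly above 0, and the intervals of BCL2, PMAIP1 and BMF lie wholly below 0, though BMF did not pass after adjustment over all genes.

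The pore-forming genes BAX and BAK1 did not pass the test, although both were lower in SAL in all 3 pairs. BAX, on chromosome 19 (49458072 to 49465055), encodes a protein that moves from the cytosol to mitochondria when activated. It had 13.3, 14.6 and 8.15 CPM in DMSO and 9.10, 10.6 and 7.65 CPM in SAL. The difference was near 0 in replicate 3 and larger in the other two. Its log2 fold change was -0.38 (standard error 0.18, 95% interval -0.77 to 0.0018, adjusted p = 0.160, edgeR). BAK1, on chromosome 6 (33540324 to 33548070), encodes a resident of the outer mitochondrial membrane. It had 2.94, 14.3 and 6.81 CPM in DMSO and 2.65, 10.4 and 4.57 CPM in SAL. Replicate 2 was highest in both groups, and the spread between numbers was wider than any change within a pair. Its estimate was -0.43 on the log2 scale (standard error 0.21, 95% interval -0.88 to 0.023, adjusted p = 0.181, edgeR). BAK1 has processed pseudogenes, with which its reads may be split. Both intervals reach past 0 at their upper end.

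PMAIP1, which encodes the BH3-only protein NOXA, an inhibitor of MCL1, fell in all 3 pairs. Its levels were 28.5, 14.1 and 20.7 CPM in DMSO and 16.2, 6.20 and 9.13 CPM in SAL. Only SAL replicate 1 reached above the lowest DMSO library. The mean fell from 21.1 ± 7.23 to 10.5 ± 5.13 CPM (SD, n = 3), with pair differences of -0.81, -1.15 and -1.16 on the log2 scale. The fit gave -1.04 on the log2 scale (standard error 0.16, 95% interval -1.38 to -0.70, adjusted p = 0.000240, edgeR), or 0.487 times the DMSO level. PMAIP1 was also called with DESeq2 (adjusted p = 0.000148) and without each replicate number in turn (adjusted p at most 0.0143, without replicate 3). It is on the plus strand of chromosome 18 (57567228 to 57571537), and no other annotated exon overlaps its own.

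BMF, on chromosome 15 (40380091 to 40401093), encodes a BH3-only protein tied to the cytoskeleton through a dynein light chain. It was lower in each pair but did not pass. It had 2.20, 10.6 and 5.61 CPM in DMSO and 1.39, 6.64 and 3.83 CPM in SAL. The pairs differed by -0.58, -0.66 and -0.52 on the log2 scale, the closest agreement among pairs of any member that was lower in all 3. The log2 fold change was -0.63 (standard error 0.24, 95% interval -1.14 to -0.12), with an unadjusted p of 0.0188 and an adjusted p of 0.0789 from edgeR. It had 11 to 77 counts per library. It was not called under any of the settings tried.

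BCL2L11, on chromosome 2 (111876955 to 111926021), encodes BIM, which binds all pro-survival members. It had 22.1, 59.0 and 58.2 CPM in DMSO and 25.4, 47.3 and 51.4 CPM in SAL. It was higher in SAL in replicate 1 and lower in the other two, for a log2 fold change of -0.12 (95% interval -0.38 to 0.13, adjusted p = 0.527, edgeR). BIK, on chromosome 22 (43506756 to 43525718), encodes a protein of the endoplasmic reticulum. It had 22.8, 10.9 and 5.21 CPM in DMSO and 22.4, 11.1 and 6.30 CPM in SAL. Each pair was close together while the replicate numbers were far apart. Its log2 fold change was 0.061 (95% interval -0.30 to 0.42, adjusted p = 0.846, edgeR). Exons of other genes on the opposite strand cover 10.8% of the exon bases of BCL2L11, 8.46% of those of BMF and 4.11% of those of BAK1, and a noncoding gene on the same strand covers 5.27% of those of MCL1, so these counts are less certain.

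BID, on chromosome 22 (18216904 to 18257536), encodes a protein that caspase-8 cleaves, which links death receptors to mitochondria. It had 37.3, 24.4 and 14.7 CPM in DMSO and 22.7, 29.7 and 11.6 CPM in SAL. It was lower in SAL in replicates 1 and 3 and higher in replicate 2. Its estimate was -0.25 on the log2 scale (95% interval -0.63 to 0.13, adjusted p = 0.363, edgeR). Single replicate numbers decided this reading. Without replicate 2 it was called lower (log2 fold change -0.58, adjusted p = 0.0302), and without replicate 1 the estimate was 0.0217 (adjusted p = 0.947).

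**Figure D3:**
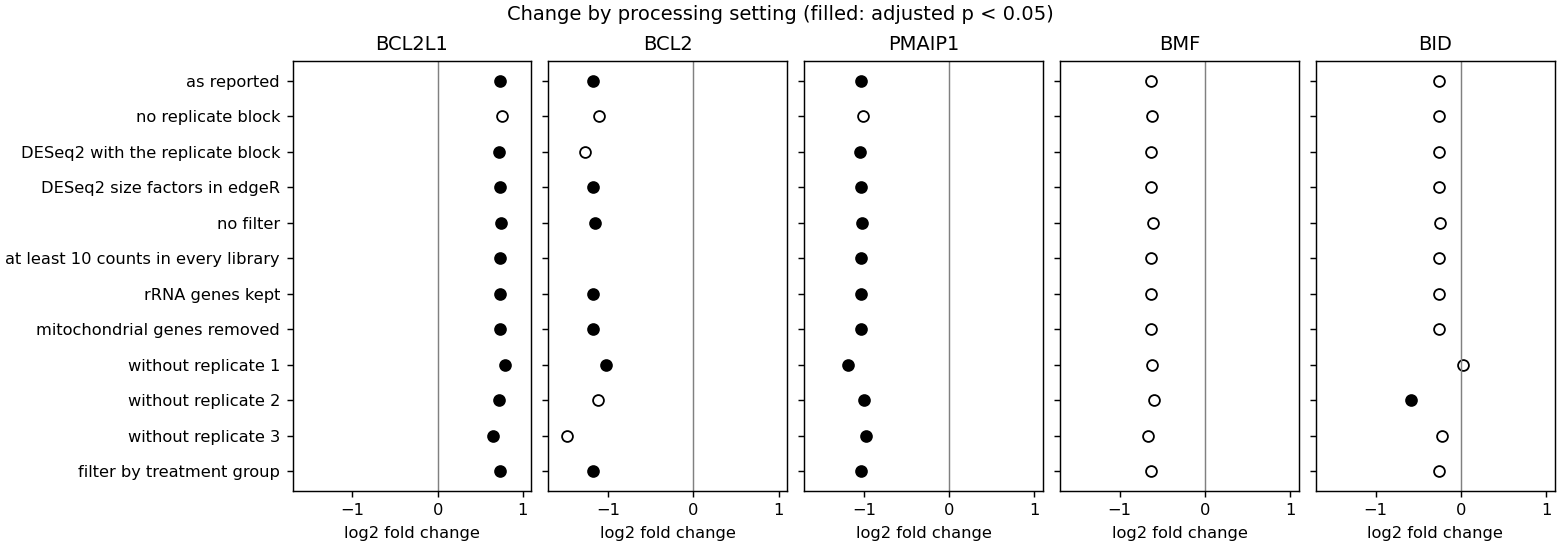
Log2 fold change of 5 members under each processing setting, with filled points for an adjusted p under 0.05 and open points otherwise. BCL2L1 and PMAIP1 stay filled except without the replicate block, BCL2 opens under 4 settings, BMF is open throughout, and BID is filled without replicate 2 alone. BCL2 has no point where 10 counts in every library were required.

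Most of the variation of nearly every member went with the replicate number and not with the treatment. Its part of the total sum of squares on the log2 scale ran from 45.6% to 99.1% (median 88.1%), and that of the treatment reached 53.1% at most (median 7.63%). PMAIP1 was the only member for which the share of the treatment was the larger. BCL2, BCL2L1, MCL1, BAK1, BCL2L11 and BMF were lowest in replicate 1 in both groups, and BIK and PMAIP1 were highest there. BAK1, BMF and BCL2L1 differed 4.88-fold, 4.82-fold and 4.43-fold between the highest and lowest DMSO library. The share of gene counts on rRNA genes also ran with the number, at 27.7%, 18.6% and 11.9% for DMSO and 27.8%, 22.0% and 17.4% for SAL, and its part in these levels was not tested. Without the replicate block, no member passed the test, where 0.0391% of all genes tested did (edgeR). At an unadjusted p under 0.05 it was 0 of 10 members, against 737 of the 17894 genes tested. In that fit the log2 fold changes of BCL2, BCL2L1 and PMAIP1 were -1.11, 0.75 and -1.01 (adjusted p = 0.999965 for each, edgeR).

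Set per exon length, so that genes can be compared, MCL1 had the highest mean of the family and BCL2 the lowest in both groups. In DMSO the order of the mean levels per kilobase of exon was MCL1 (19.8 CPM per kb), BIK (13.6), PMAIP1 (9.65), BCL2L1 (8.91), BCL2L11 (6.89), BID (5.76), BAX (4.65), BAK1 (3.63), BMF (1.13) and BCL2 (0.353). Neighbours in this order overlapped in their ranges throughout, and BAK1 over BMF and BMF over BCL2 were the 2 steps that held in all 3 libraries. In SAL, BCL2L1 stood second with 15.0 CPM per kb and PMAIP1 sixth with 4.80 CPM per kb, again with overlapping neighbours. The exon lengths come from an annotation newer than that of the counts and take in all isoforms, so the level of BCL2, with 12612 exon bases, is spread over sequence that its main transcript may not use.

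**Figure D4:**
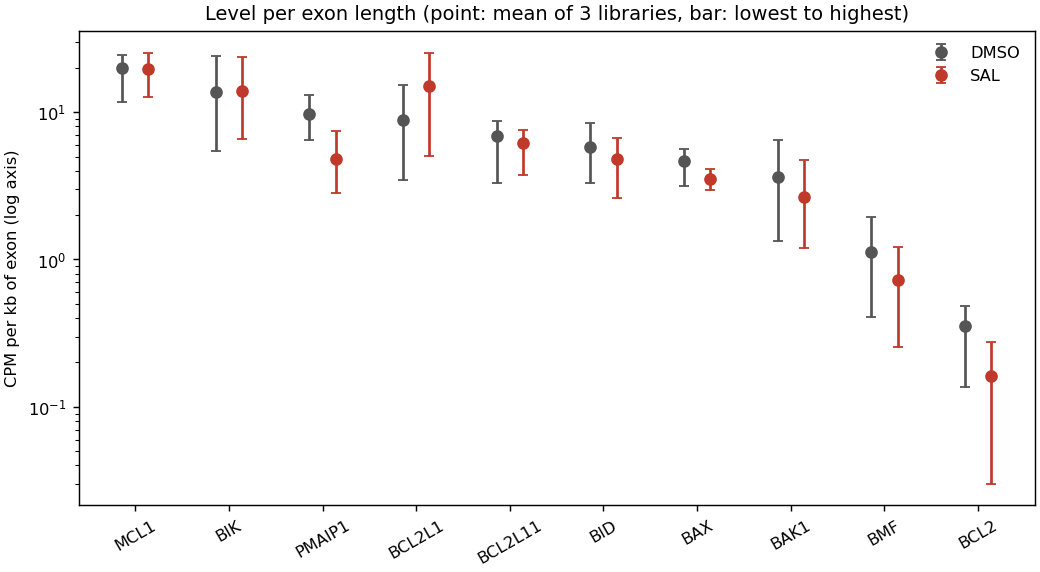
Mean level per kilobase of exon of the 10 genes (log axis) in DMSO and SAL, with bars from the lowest to the highest of 3 libraries. The bars of neighbours overlap, and BCL2 lies lowest in both groups with 0.353 and 0.163 CPM per kb.

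The balance between opposing members was described by log2 ratios of CPM within each library (prior count 2), with no test. The BAX to BCL2 ratio was 2.79, 1.37 and 0.39 for DMSO and 3.89, 2.08 and 1.09 for SAL. It was higher in SAL in every pair, by 0.84 ± 0.23 on the log2 scale (SD, n = 3), while both genes had lower estimates and the fall of BCL2 was the larger. Of 3 other ratios, chosen after their values had been seen, that of BCL2L11 to BCL2 was higher in SAL by 1.096 ± 0.65, and the other two went the opposite way. That of BCL2L11 to BCL2L1 differed by -0.81 ± 0.40, and that of PMAIP1 to MCL1 by -1.04 ± 0.15, lower in SAL in each pair. The direction differed with the members set against each other. The 3 ratios chosen this way largely restate the changes of BCL2, BCL2L1 and PMAIP1, so they add no separate result.

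Promoter windows from 250 bases before to 50 bases after the annotated start were taken from RefSeq (GRCh38.p14) for 8 of the 10 members, in 14 windows, and BIK and MCL1 had none. Both strands were searched for AGAACA (an androgen receptor half-site), GTAAACA (forkhead), TTTCCCGC and TTTGGCGC (E2F) and GGGCGG (SP1). AGAACA, TTTCCCGC and TTTGGCGC were in no member's window and are in 14.8%, 1.63% and 0.652% of all windows in the table. GGGCGG was in 10 of the 14 windows, which belong to 7 members and partly overlap, and is in 45.0% of all windows. The window of PMAIP1 is shown because this BH3-only gene was called lower. It holds GGGCGG 4 times, marked in capitals on either strand, as do 2 overlapping windows of BID, which was not called (plus strand, chr18:59899746-59900045).
PMAIP1: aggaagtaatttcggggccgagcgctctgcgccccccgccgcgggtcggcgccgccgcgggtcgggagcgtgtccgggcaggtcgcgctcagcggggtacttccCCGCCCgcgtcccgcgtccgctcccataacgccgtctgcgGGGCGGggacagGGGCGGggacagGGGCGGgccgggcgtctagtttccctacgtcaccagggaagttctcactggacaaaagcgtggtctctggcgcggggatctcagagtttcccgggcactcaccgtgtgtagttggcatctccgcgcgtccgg

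BCL2L11 was the only member with GTAAACA, which is in 3.42% of all windows. Its window is shown because FOXO3, a forkhead gene, is among the wider genes measured (plus strand, chr2:111120664-111120963), with GTAAACA and GGGCGG in capitals. A match of letters is not a binding site, and the absence of one says only that these letters are not in the window.
BCL2L11: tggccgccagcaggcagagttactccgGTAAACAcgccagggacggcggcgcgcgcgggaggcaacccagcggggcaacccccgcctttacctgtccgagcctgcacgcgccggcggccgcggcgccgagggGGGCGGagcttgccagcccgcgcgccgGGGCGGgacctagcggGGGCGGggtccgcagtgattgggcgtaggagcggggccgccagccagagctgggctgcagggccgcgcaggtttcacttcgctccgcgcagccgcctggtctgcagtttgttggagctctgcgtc

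Genes that act with the family were read from lists of the apoptosis pathway. Of 73 such genes, 65 were tested, 12 were called higher and 11 lower (edgeR with the block), with a median log2 fold change of 0.046. Over all genes tested the shares were 11.0% higher and 8.94% lower, and the counts given for the single lists, each of 10 tested genes or fewer, stand against the same shares. With DESeq2, which called 7.43% of all genes tested higher and 5.17% lower, 13 of the 23 were called in the same direction. It lost AIFM1, BCL2L12, BNIP3L, CASP9, DFFB, FAS, FBXO10, TNFRSF10A, TNFRSF1A and TRADD (adjusted p = 0.0616 to 0.215). Without replicate 3, 5 of the 23 remained, TNFRSF10B, FOXO3 and MOAP1 higher and BIRC5 and E2F1 lower. That fit called 750 of all 16992 genes tested higher and 483 lower. Without replicate 2, AIFM1, BCAP31, DFFB, FAS, FBXO10, TNFRSF1A and TRADD were lost, and without replicate 1 BCL2L12 was.

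Most other BCL2 family genes were not called. The pro-survival gene BCL2L2, the pore-forming relative BOK and the BH3-only genes BAD and BBC3 stayed short of the threshold at 0.049, 0.18, 0.26 and -0.15 on the log2 scale. They are named after their values had been seen. BCL2A1 had 0 counts in every library. HRK, a BH3-only gene named after its values had been seen, was too low for the test, with 6, 8 and 16 counts in DMSO and 1, 5 and 1 in SAL, and it was called lower once the filter was dropped (adjusted p = 0.0191, edgeR). Of 8 atypical relatives tested, 3 were called higher and 1 lower (11.0% and 8.94% of all genes tested), and BNIP3 and MOAP1 were the 2 also called with DESeq2. The mitophagy receptor genes BNIP3 (log2 fold change 0.49, adjusted p = 0.00101, edgeR) and BNIP3L (0.29, adjusted p = 0.0439) were higher, as was MOAP1, whose protein binds BAX (0.52, adjusted p = 0.00629). BCL2L12 was lower (log2 fold change -0.72, adjusted p = 0.0320).

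Downstream of the mitochondrial pore, changes ran in both directions. CYCS, which encodes cytochrome c, was lower (log2 fold change -0.36, adjusted p = 0.0101, edgeR), and AIFM1, which encodes apoptosis-inducing factor, was higher (0.42, adjusted p = 0.0126). The other 4 genes of this list were not called. Among 9 caspase and nuclease genes, CASP9, the initiator caspase of the apoptosome, was called higher and CASP2 and DFFB lower. CASP9 had 3.18, 4.96 and 2.00 CPM in DMSO and 5.81, 6.42 and 5.93 CPM in SAL, so that the groups did not overlap (log2 fold change 0.87, adjusted p = 0.0320). It was not called with DESeq2 (0.90, adjusted p = 0.144) or without replicate 3 (0.60, adjusted p = 0.353). CASP2, an initiator caspase, stood at -0.43 (adjusted p = 0.00767) and DFFB, the caspase-activated nuclease, at -0.41 (adjusted p = 0.0452).

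Of 6 inhibitor of apoptosis genes tested, only BIRC5 was called. BIRC5 encodes survivin, which also serves in mitosis. It had 171, 58.7 and 51.9 CPM in DMSO and 79.2, 31.5 and 26.0 CPM in SAL, lower in each pair (log2 fold change -1.01, standard error 0.10, adjusted p = 3.40e-06, edgeR).

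The death receptor list, which feeds BID, had 4 genes called higher and 1 lower of 10 tested (11.0% and 8.94% of all genes tested), of which TNFRSF10B alone was also called with DESeq2. TNFRSF10B (log2 fold change 0.80, adjusted p = 1.97e-05, edgeR) and TNFRSF10A (0.45, adjusted p = 0.00973) encode receptors for TRAIL. TNFRSF10B rose from 69.0, 203 and 144 CPM to 128, 318 and 265 CPM in replicates 1, 2 and 3. The adaptor gene TRADD was higher by 1.03 (adjusted p = 0.0347), largely through SAL replicate 2 with 9.52 CPM against 2.65 and 3.58 in the other SAL libraries. FAS, itself a death receptor gene, was lower (log2 fold change -0.76, adjusted p = 0.0393), but was not called with DESeq2 (adjusted p = 0.215).

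Most partners of the members were not called. Of 5 outer mitochondrial membrane partners tested, 1 was called higher and 4 were not called. Of 9 genes for binding partners and turnover of members, 1 was called higher, 1 lower and 7 were not called. Over all genes tested the shares were 11.0% higher and 8.94% lower. BCAP31, whose protein joins the endoplasmic reticulum to mitochondria (log2 fold change 0.38, adjusted p = 0.0124, edgeR), and DYNLL2, a dynein light chain that binds BMF (0.43, adjusted p = 0.00398), were higher. FBXO10, whose product targets BCL2 for degradation, was lower (-0.58, adjusted p = 0.0195).

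Of 8 genes for transcription factors that act on promoters of the family, 1 was called higher and 4 lower (11.0% and 8.94% of all genes tested). FOXO3, a forkhead activator of BCL2L11, rose by 0.70 on the log2 scale (standard error 0.11, adjusted p = 0.000433, edgeR), from 26.8, 152 and 124 CPM to 54.5, 202 and 207 CPM, while BCL2L11 itself was not called. Among the lower were DDIT3 (log2 fold change -0.74, adjusted p = 0.00126) and the cell-cycle factor gene E2F1 (-0.68, adjusted p = 0.00199). DDIT3, which encodes the stress factor CHOP, was at 33.4 to 35.4 CPM in DMSO and 18.1 to 25.3 CPM in SAL, so that its groups did not overlap.

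**Figure D5:**
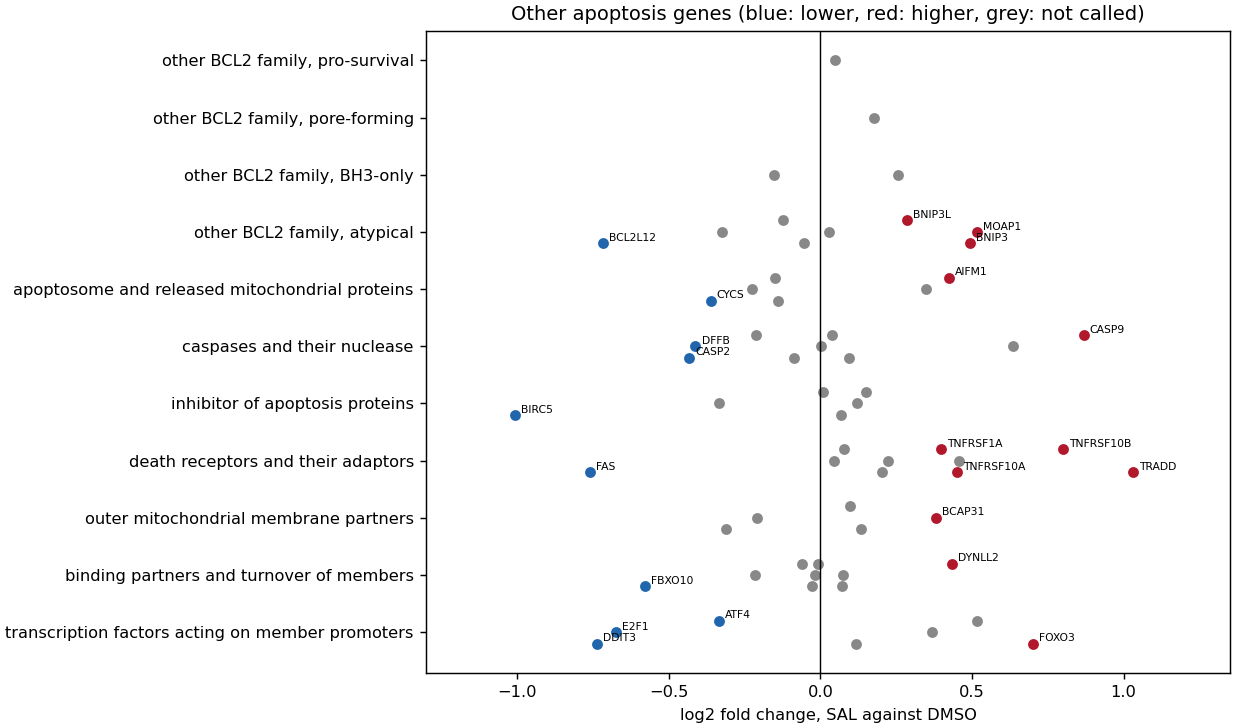
Log2 fold change of SAL against DMSO for the tested genes of the wider apoptosis lists that are reported here, 1 row per list and 1 point per gene, red for called higher, blue for called lower and grey for not called. TNFRSF10B and FOXO3 lie at 0.80 and 0.70, and BIRC5 lies farthest to the left at -1.01.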

How the data were processed

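RNA-seq of C4-2 cells gave 3 DMSO and 3 SAL libraries. Per the labels and the study's methods, the authors used read 1 alone after trimming, aligned it to hg19 (TopHat2 2.1.0) and counted it over gencode v19 exons with HTSeq 0.11.2, ignoring strand although the kit keeps it. The deposited unit is the raw count per gene symbol, and the tallies of unassigned reads were left out (26.7% to 51.1% of reads lay outside annotated exons). The 523 rRNA gene symbols were removed, as in the study, which leaves 6931042 to 9776990 counts a library. Genes were kept with filterByExpr on the design (17894 of the 55242 symbols left) and normalized with TMM. They were tested with the quasi-likelihood test of edgeR 4.0.16 (robust, replicate number as a block, R 4.3.3), with Benjamini-Hochberg adjustment over all genes tested. A standard error is the size of the log2 change divided by the square root of F. Pair differences and ratios use log2 CPM with a prior count of 2.

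The block follows the replicate numbers in the labels and the study's own paired test. As a check, libraries of the same number deviated together from their group means (r over genes of 0.87, 0.83 and 0.70). Those of different numbers gave -0.80 to 0.038. Deviations from a group mean cancel within the group, so positive values for the same number push these below 0 on balance. The values for different numbers are therefore no separate check.

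The 10 members, the wider lists and the motifs were chosen with earlier results of these data known. Every member was named, and of each wider list at most 3 called genes per direction by smallest adjusted p, 1 of which is not reported here. The alternatives were DESeq2 1.42.0 with the block, its size factors in edgeR, no block, 2 other filters on low counts, rRNA genes kept, mitochondrial genes removed, a threshold of 0.01 and each replicate number left out. A filter by treatment group was added after seeing the data. Positions and exon lengths come from GENCODE v44 lifted to GRCh37. The BH3 core, planned as a protein search, was found on translated coding DNA. On simulated data for this comparison with 17381 genes, 74.3% of the 70 genes given a log2 fold of 1 were called. Of the 50 genes given a log2 fold of 2, 94.0% were called, and of the 75 given 0.5, 20% were.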

Additional observations from a re-analysis of the deposited data

How the results depend on the processing

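Without the replicate block the test called no member higher or lower (0 and 0) and none of the wider apoptosis genes (0 and 0), although same-numbered libraries deviated together. The number of members called lower was 1 in place of 2 with DESeq2 and the block, with at least 10 counts in every library (which leaves BCL2 out) and at an adjusted p under 0.01, and it ranged from 1 to 2 when a replicate number was left out. The number called higher was 1 under every setting with the block, among them each left-out number (1 to 1). With DESeq2, 6 wider genes were called higher and 7 lower, against 7.43% and 5.17% of all genes tested. With a replicate number left out, 3 to 15 were called higher and 2 to 12 lower. The low ends are from the fit without replicate 3, which called 750 of 16992 genes higher and 483 lower. The high ends are from the fit without replicate 1, which called 2443 of 16735 genes higher and 1955 lower. The BAX to BCL2 difference stayed between 0.71 and 0.91 on the log2 scale when a number was left out and was 0.84 with DESeq2 size factors. The size factor of a library cancels in a ratio within it, apart from the prior count, so the latter value is no separate check. The choice of test, filter and threshold for calls does not enter that ratio, so those alternatives gave it no value.

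Of 109 values of single members under alternatives, 98 kept their direction and side of the threshold, 6 lost the call (BCL2 under 4 settings, BCL2L1 and PMAIP1 without the block), 1 gained it (BID without replicate 2) and 4 turned sign without a call. MCL1 turned to 0.0107 without a filter. With a replicate number left out, MCL1 ran from -0.0545 to 0.0575, BIK from -0.0032 to 0.12 and BID from -0.58 to 0.0217 on the log2 scale. The cause was not tested. Over all genes the block fit called 1972 higher and 1599 lower, DESeq2 1329 and 925, the fit without replicate 3 750 and 483, and the fit without the block 6 and 1. For BCL2, with as few as 3 counts in a library, depth limits any statement on the size of its fall.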
